A study of Mus musculus with 8 samples.

Results

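The genes described here encode 46 RNA-binding regulators of splicing and RNA processing in mouse brain: hnRNP proteins, SR proteins and their Tra2 relatives, the Pur proteins and other proteins reported to bind the G4C2 repeat, and the neuronal splicing regulators of the Elavl, Rbfox, Nova, Ptbp, Celf and Mbnl families. They were chosen by name, and each of the 46 was found as a single row among the 15978 rows of the authors' deposited table. Brain RNA came from 5 male C9-BAC mice and 3 male wild-type mice, all on the SJL/Bl6 background. The C9-BAC mice carried a bacterial artificial chromosome, a vector for long inserts of genomic DNA, that holds human C9ORF72 with 500 G4C2 repeats; their endogenous mouse genes are not stated to be altered. The labels give neither age nor brain region. All libraries were made from total RNA with strand information and without poly(A) selection, per the labels' protocols.

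Expanded G4C2 repeats in C9ORF72 cause amyotrophic lateral sclerosis and frontotemporal dementia in people. Transcripts of the repeat form nuclear RNA foci, and proteins such as hnRNP H, hnRNP A3, Pur-alpha, nucleolin and ALYREF have been reported to bind the repeat RNA or to gather in foci, so that a loss of their activity has been proposed as a route to disease. hnRNP proteins coat new transcripts and often repress exons, SR proteins mostly promote exon inclusion, and the neuronal families set the exon choices that distinguish neurons from other cells. Many of these genes regulate their own mRNA through an exon that leads to decay of the transcript. The comparison of C9-BAC with wild-type brain asks here whether the mRNA levels of such proteins differ when the repeat is expressed.

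Between C9-BAC and wild-type brain, none of the 46 genes passed an adjusted p of 0.05 by DESeq2's Wald test, and the number under an unadjusted p of 0.05 was 0 as well. Of 15944 rows with a p in the authors' deposited table, 0 passed the adjusted threshold (0%) and 239 the unadjusted one (1.50%). The adjusted p from DESeq2 was 0.9997 for each of the 46 genes in the authors' deposited table. Where the deposited Wald statistic was rescaled to an empirical null, the centre and spread of all rows, Purb alone of the 46 came under an unadjusted 0.05, against 4.95% of rows. With a trend in GC content and length taken off first it was Srsf11 alone, against 6.36% of rows, or Hnrnpd alone, against 6.29%, when the transcript of middle length gave that trend; none passed after adjustment. Fold changes of the 46 genes in the authors' deposited table lay between 0.874 for Purb and 1.07 for Srsf11, and 38 of the 46 (82.6%) had a log2 fold change within 0.1 of 0, against 82.6% of all rows. The file does not name the genotype on top of the fold change, so every sign is given as deposited and says nothing about which genotype was higher.

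Negative signs were more common than positive ones. As deposited by the authors, the log2 fold change was negative for 35 of the 46 genes and positive for 11 (76.1% negative), against 52.6% negative over all rows of the authors' deposited table. The median log2 fold change was -0.04 for the 46 genes and -0.004 for all rows of the authors' deposited table. No test of this difference was made, and the genes are not independent replicates. Transcript GC content moved with the sign across the whole table, and its values stand beside the members' further on.

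**Figure D1:**
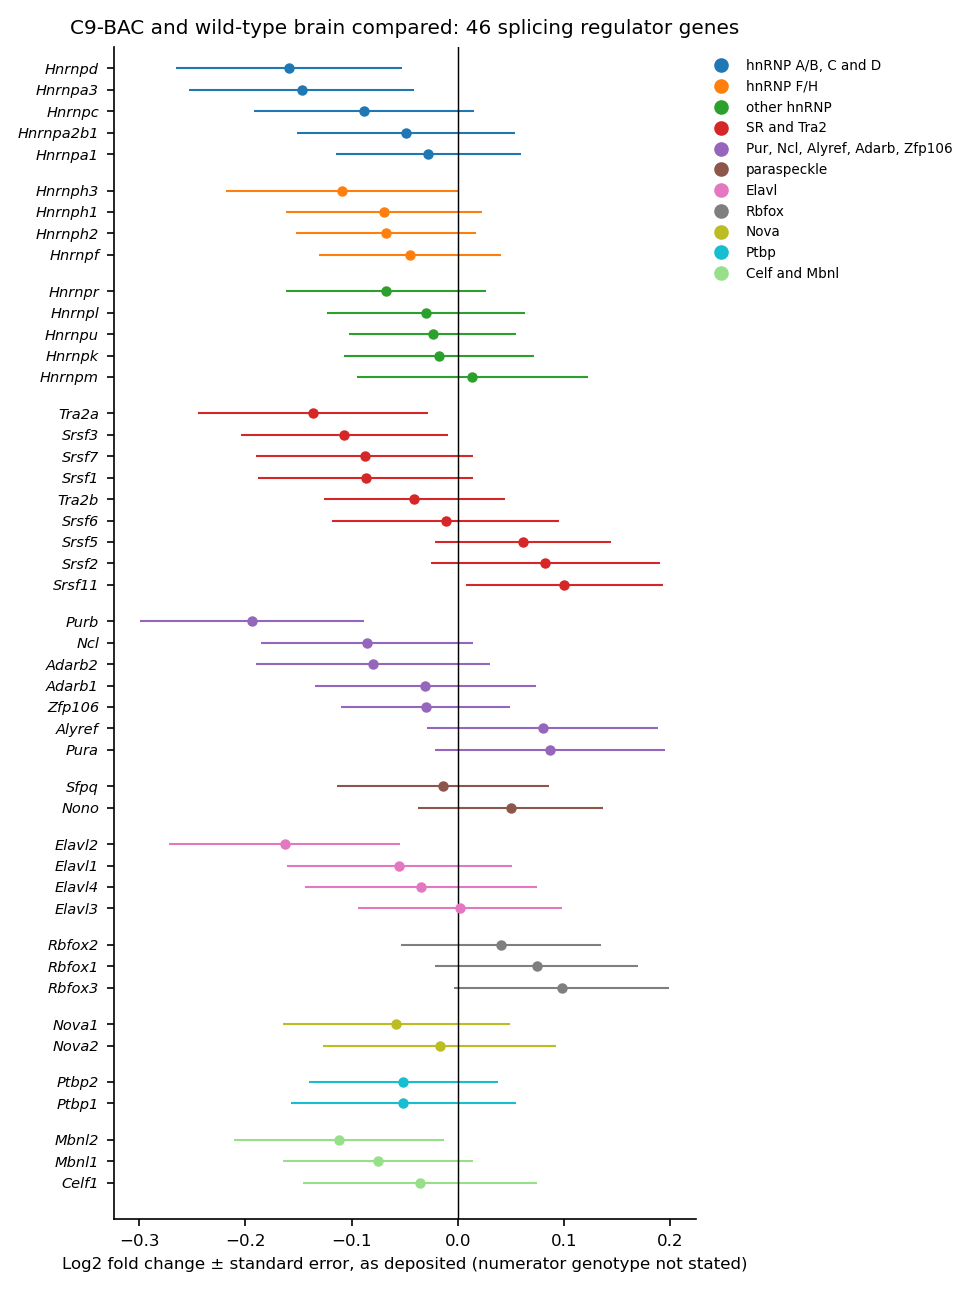
Log2 fold change of each of the 46 genes (points) with its standard error (bars), as deposited, grouped by protein family and ordered by value within a family. All values lie between -0.19 and 0.10, and the Rbfox genes are the 3 of a family that all lie above 0.

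The genes were well expressed. Their mean normalized counts, each the authors' mean over the samples, ran from 165.3 for Hnrnph3 to 6149 for Purb in the authors' deposited table, with a median of 978.9 against 170.8 for all rows. All 46 therefore reached at least 100, and 45 of them stood above the median of all rows. Per kilobase of the longest linked transcript, the highest levels were those of Srsf5 (1219), an SR protein gene, Rbfox1 (1171), the K-homology protein gene Hnrnpk (844.3), Purb (739.2) and the CA-repeat binder gene Hnrnpl (662.0). The lowest levels per kilobase were those of Nova2 (58.7) and Hnrnpr (45.4). This order depends on the transcript taken as the length: with the linked transcript of middle length, Rbfox1 came to 2547 and Hnrnpr to 383.0 normalized counts per kilobase. Rbfox2 (1993), Sfpq (1523) and Mbnl2 (1187) then joined Rbfox1 and Srsf5 (1252) in the top 5, with Hnrnpa3 (1006) next, ahead of Hnrnpk (937.1), Purb (739.2) and Hnrnpl (662.0).

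**Figure D2:**
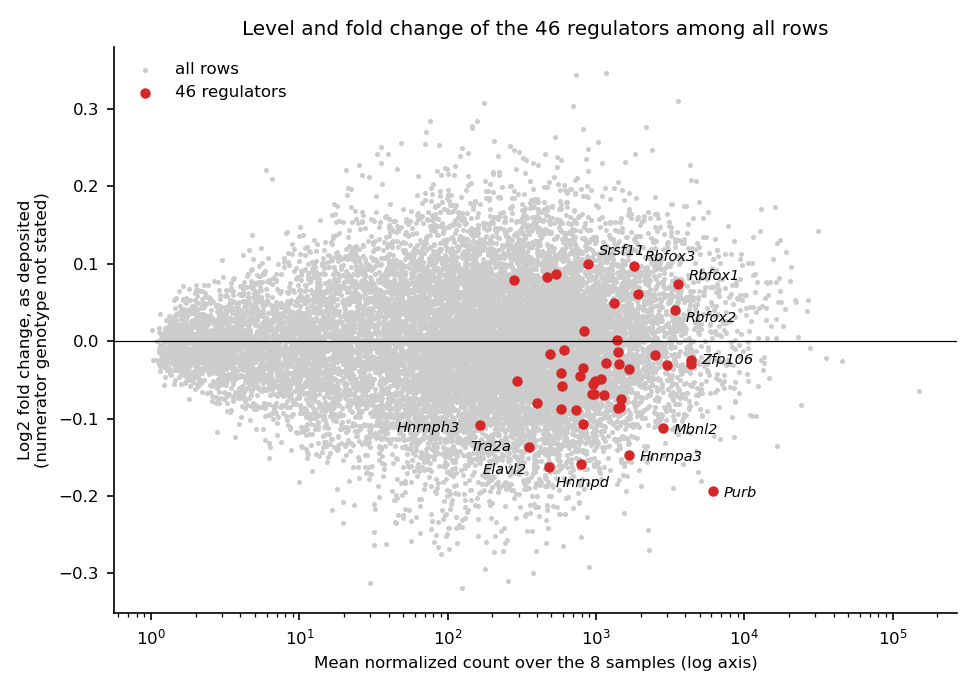
Log2 fold change, as deposited, against the mean normalized count over the 8 samples on a log axis, for all rows of the table (grey) and the 46 regulators (red). The 46 genes sit at counts of 165.3 to 6149 among other rows of like level, with Purb lowest at -0.19, at the lower edge of the rows near its count.

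The hnRNP genes for A, B, C and D proteins were all negative as deposited. Hnrnpd encodes AUF1, which binds AU-rich elements; in the authors' deposited table it had 785.6 normalized counts on average and a log2 fold change of -0.16 ± 0.11 (SE) (p = 0.134, DESeq2 adjusted p = 0.9997). Hnrnpd lies on chromosome 5 at 99955935 to 99979130 (RefSeq gene bounds, GRCm38.p6, as for the genes below). Hnrnpa3, whose protein has been found in repeat-positive inclusions in patients, lies on chromosome 2 at 75659105 to 75669407. Hnrnpa3 had, per the authors' deposited table, 1664 normalized counts on average and a log2 fold change of -0.15 ± 0.11 (SE) (p = 0.165, DESeq2 adjusted p = 0.9997). The U-tract binder gene Hnrnpc (-0.09), Hnrnpa2b1 (-0.05) and Hnrnpa1 (-0.03) had smaller log2 fold changes in the authors' deposited table. Of these, Hnrnpa1, Hnrnpa3 and Hnrnpc have near-identical copies elsewhere in the genome and are uncertain for the reason given below.

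The genes for hnRNP F and H, proteins that bind G-runs and are among those most often reported with the repeat RNA, were also all negative as deposited. Log2 fold changes in the authors' deposited table were -0.11 for Hnrnph3, -0.07 for both Hnrnph1 and Hnrnph2, and -0.04 for Hnrnpf, with standard errors of 0.085 to 0.110. The smallest p of these 4 genes in the authors' deposited table was 0.320, for Hnrnph3, so none stood beyond its error. Among the other hnRNP genes of the authors' deposited table, Hnrnpr had a log2 fold change of -0.07 and Hnrnpu, which encodes a nuclear scaffold protein, of -0.02. Hnrnpl had, per the authors' deposited table, 1418 normalized counts on average and a log2 fold change of -0.03 ± 0.09 (SE) (p = 0.746, DESeq2 adjusted p = 0.9997). Hnrnpk lay near 0: the authors' deposited table gave it 2508 normalized counts on average and a log2 fold change of -0.02 ± 0.09 (SE) (p = 0.841, DESeq2 adjusted p = 0.9997). Of the hnRNP genes among the 46, Hnrnpm alone was positive: its mean normalized count was 827.3 and its log2 fold change 0.01 ± 0.11 (SE) (p = 0.902, DESeq2 adjusted p = 0.9997) in the authors' deposited table.

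The SR and Tra2 genes were split in sign. Of the 9 genes, 6 were negative and 3 positive in the authors' deposited table. Tra2a, which encodes an SR-like activator of exons with GAA repeats, lies on chromosome 6 at 49243921 to 49264248. Tra2a had, per the authors' deposited table, 353.4 normalized counts on average and a log2 fold change of -0.14 ± 0.11 (SE) (p = 0.208, DESeq2 adjusted p = 0.9997). The other negative genes of the authors' deposited table were Srsf3 (-0.11), Srsf7 (-0.09), Srsf1 (-0.09), Tra2b (-0.04) and Srsf6, whose mean normalized count was 611.4 and whose log2 fold change was -0.01 ± 0.11 (SE) (p = 0.914, DESeq2 adjusted p = 0.9997). Srsf3 and Srsf7 encode the SR proteins known as adaptors for mRNA export. The positive genes of the authors' deposited table were Srsf11 (0.10 ± 0.09, p = 0.281), the most positive of all 46, with Srsf2 (0.08) and Srsf5. Srsf5 had 1912 normalized counts on average and a log2 fold change of 0.06 ± 0.08 (SE) (p = 0.461, DESeq2 adjusted p = 0.9997) in the authors' deposited table.

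Of the remaining proteins reported with the repeat, the 2 Pur genes had opposite signs. Purb, which encodes Pur-beta, a binder of purine-rich single-stranded nucleic acid, had the most negative value and the smallest p of the 46. Purb had, per the authors' deposited table, 6149 normalized counts on average and a log2 fold change of -0.19 ± 0.11 (SE) (p = 0.0661, DESeq2 adjusted p = 0.9997). The 95% Wald interval of this value ran from a fold of 0.758 to 1.01 on the deposited scale. It rests on the deposited standard error and does not show the values of single mice. Purb lies on chromosome 11 at 6467599 to 6476076. Pura, for Pur-alpha, had 532.9 normalized counts on average and a log2 fold change of 0.09 ± 0.11 (SE) in the authors' deposited table (p = 0.423). The difference between the Pur genes was not tested, because the table holds no values for single mice.

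Further repeat-associated genes stood closer to 0. Log2 fold changes in the authors' deposited table were -0.09 for Ncl, which encodes the nucleolar protein nucleolin, and 0.08 for Alyref, an mRNA export adaptor gene. The RNA editing genes Adarb2 and Adarb1 had -0.08 and -0.03 in the authors' deposited table, and Zfp106, whose zinc finger protein binds GGGGCC repeat RNA and is needed by motor neurons in mice, had -0.03. The paraspeckle genes Nono and Sfpq had 0.05 and -0.01 in the authors' deposited table, with p-values of 0.569 and 0.888.

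The neuronal regulators differed in sign between families. All Rbfox genes, whose proteins bind UGCAUG, were positive in the authors' deposited table: Rbfox3, the gene of the neuronal nuclear marker NeuN, had 0.10 ± 0.10 (p = 0.334), Rbfox1 0.07 ± 0.10 (p = 0.440) and Rbfox2 0.04 ± 0.09 (p = 0.666). Rbfox1 averaged 3584 normalized counts, with a DESeq2 adjusted p of 0.9997, in the authors' deposited table. Among the Elavl genes, for proteins that bind AU-rich and U-rich RNA, Elavl2 had 484.6 normalized counts on average and a log2 fold change of -0.16 ± 0.11 (SE) (p = 0.135, DESeq2 adjusted p = 0.9997) in the authors' deposited table. Elavl2 lies on chromosome 4 at 91211533 to 91400108. The widely expressed Elavl1 (-0.06) and the neuronal Elavl4 (-0.03) were nearer to 0 in the authors' deposited table, and Elavl3 had the largest p of the 46: its mean normalized count was 1375 and its log2 fold change 0.002 ± 0.10 (SE) (p = 0.983, DESeq2 adjusted p = 0.9997).

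Other families were negative throughout as deposited, though Nova1 and Ptbp2 turned positive after the GC content trend described below. In the authors' deposited table the YCAY binders Nova1 and Nova2 had log2 fold changes of -0.06 and -0.02. Ptbp2, the neuronal polypyrimidine tract binder gene, and Ptbp1, its counterpart in progenitors and glia, both had -0.05 in the authors' deposited table. Mbnl2 and Mbnl1, the muscleblind genes whose proteins are sequestered by CUG repeats in myotonic dystrophy, had -0.11 and -0.08, and Celf1, which encodes a protein acting against muscleblind on many exons, had -0.04 in the authors' deposited table. The smallest p of these 7 genes in the authors' deposited table was 0.257, for Mbnl2.

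Precision set a floor under what could be seen. The standard errors of the 46 genes ran from 0.079 to 0.110 in the authors' deposited table, so an unadjusted p of 0.05 would have needed an absolute log2 fold change of 0.15 to 0.22. The 95% Wald intervals of all 46 contained 0, and together they reached from a fold of 0.758 to 1.23 on the deposited scale. Across the authors' deposited table no standard error exceeded 0.110, and rows with a mean normalized count under 10 had a median standard error of 0.0516, lower than the 0.102 of all rows. Fold changes pulled toward 0 by a prior give errors of this form; no source used here records that step, and if it was used the intervals understate the range of differences that remain possible. Values of single mice were not analysed here, so neither the overlap of the genotypes nor the spread within them is given.

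Of transcript GC content, transcript length, mean count, level per kilobase and standard error, GC content had the strongest correlation with the fold change. The longest linked transcripts of the 46 genes had a median GC content of 44.1%, against 50.3% for all rows, and 39 of the 46 lay below the median of rows with a count of at least 10. Over the 46 genes, Spearman's rho between GC content and log2 fold change was 0.61 and Pearson's r 0.51; with the transcript of middle length they were 0.34 and 0.39. Over 13627 rows reaching a mean count of 10, rho was 0.42 and r 0.41. These correlations run across genes of the same libraries and are descriptions.

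The regulators' signs were set beside those of all rows of like GC content. When rows were cut into 5 bins of equal size by GC content, the lowest bin reached up to 44.4%; in it, 23 of 24 regulators and 79.2% of all rows were negative in the authors' deposited table, with median log2 fold changes of -0.08 for the regulators and -0.06 for all rows. In the next bin 6 of 10 regulators and 62.9% of all rows were negative in the authors' deposited table. In the third bin the negative ones were 2 of 6 regulators and 48.6% of all rows, in the fourth 3 of 4 and 37.1%, and in the highest 1 of 2 and 30.8%. Median log2 fold changes of the regulators and of all rows were -0.03 and -0.02 in the second bin, and 0.03 and 0.002 in the third. They were -0.03 and 0.02 in the fourth bin, and 0.04 and 0.04 in the highest. These differences were not tested, and the upper bins hold few regulators. A trend with GC content and length was then taken off the log2 fold change. After it, 28 of the 46 (60.9%) were negative, against 50.7% of all rows with a transcript. The median residual was -0.02 for the 46 and -0.001 for all rows. By this residual 8 negative genes turned positive: Hnrnpk, Hnrnpr, Hnrnpu, Srsf6, Tra2b, Elavl4, Nova1 and Ptbp2. These calls depend on the transcript taken. With the transcript of middle length, Hnrnpr stayed negative (-0.04), while Hnrnpa1 (0.01) and Sfpq (0.04) turned positive. The 1 positive gene that turned negative was Elavl3. The part of GC content in these signs was not tested beyond that residual.

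**Figure D3:**
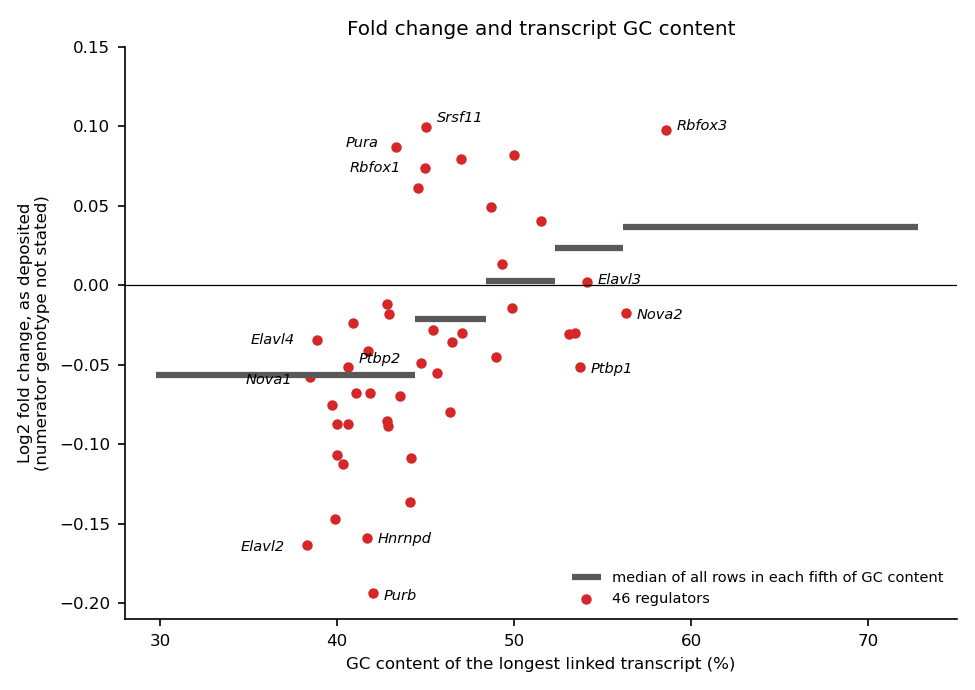
Log2 fold change, as deposited, of the 46 regulators (red points) against the GC content of the longest linked transcript, with the median of all rows in each of 5 bins of GC content (grey bars). The bars run from -0.06 in the lowest bin to 0.04 in the highest, and 34 of the 46 points lie in the lower 2 bins.

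Paralogues show how far GC content can differ between genes of related proteins. The coding sequences of Elavl3 and Elavl2 were 73.8% identical over 1053 aligned bases, with a GC content of 58.6% in Elavl3 and 46.8% in Elavl2. Aligned positions with G or C in Elavl3 and A or T in Elavl2 numbered 170, and 46 had the opposite pattern. Elavl4, also aligned with Elavl3, had a coding GC content of 51.1%. For Nova2 and Nova1 the coding GC contents were 68.8% and 50.2%, and for Ptbp1 and Ptbp2 56.8% and 43.8%. The 120-base coding stretches of highest identity within 1 exon are printed from GENCODE vM21 transcripts (GRCm38), sense strand, 5′ to 3′, to show this difference base by base. Capitals mark a G or C where the paralogue has A or T. The Elavl3 stretch is chr9:22018560-22018679, the Elavl2 stretch chr4:91253297-91253416, the Ptbp1 stretch chr10:79859835-79859954 and the Ptbp2 stretch chr3:119740337-119740456. The Ptbp1 stretch lies on the plus strand and the other 3 on the minus strand.
Elavl3: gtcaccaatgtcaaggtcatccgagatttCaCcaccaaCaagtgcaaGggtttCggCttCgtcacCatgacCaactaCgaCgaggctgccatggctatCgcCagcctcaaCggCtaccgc
Elavl2: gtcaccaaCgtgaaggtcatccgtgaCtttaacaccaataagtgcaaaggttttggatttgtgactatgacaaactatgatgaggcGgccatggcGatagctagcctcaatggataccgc
Ptbp1: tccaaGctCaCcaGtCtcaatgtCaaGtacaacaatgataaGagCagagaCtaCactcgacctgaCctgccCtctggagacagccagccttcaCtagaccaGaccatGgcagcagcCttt
Ptbp2: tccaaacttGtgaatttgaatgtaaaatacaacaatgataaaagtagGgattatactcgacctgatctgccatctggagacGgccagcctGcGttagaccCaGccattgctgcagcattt
The Elavl3 and Elavl2 stretches shared 98 of 120 bases and had 15 and 4 such G or C positions. The Ptbp1 and Ptbp2 stretches shared 93 bases and had 17 and 7. Deposited log2 fold changes were 0.002 ± 0.10 for Elavl3 and -0.16 ± 0.11 for Elavl2 in the authors' deposited table, -0.02 ± 0.11 for Nova2 and -0.06 ± 0.11 for Nova1, and -0.05 for both Ptbp1 and Ptbp2. Elavl4 had -0.03 ± 0.11, with a longest transcript of 38.9% GC content against 38.3% for Elavl2. The differences between these paralogues were not tested.

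The repeat unit GGGGCC also occurs in the regulators' own sequences. On the sense strand of the longest linked transcript it was present in 30 of the 46 genes (65.2%), against 58.6% of all rows with a transcript, at 0.275 matches per kilobase against 0.357 for all rows. Among rows with a mean count at least that of Hnrnph3, the lowest of the 46, the values were 64.4% and 0.351 matches per kilobase. In the 250 bases before each annotated start of the 44 genes with a RefSeq promoter entry (GRCm38.p6), GGGGCC on either strand was found in 22 of 64 windows (34.4%), against 7218 of 32851 windows of all genes (22.0%). Windows of the same gene can overlap, and all genes here include genes without a row in the authors' deposited table. Counted by gene, 16 of the 44 (36.4%) had a match in any window, against 6532 of 27025 genes (24.2%). The median GC content of these windows was 59.6% for the regulators and 52.4% for all genes. A match is a description of sequence and not a binding site. Purb, with the smallest p of all 46, had no match in its window of 250 bases. Hnrnpd, Elavl2 and Hnrnpa3, next in order of p, did have matches, Elavl2 in some of its windows only. Tra2a, which followed them in order of p, had no match. Whether matches go with p was not tested.

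Some rows may share reads with other genes. For 12 of the 46 genes, a transcript of another, non-overlapping gene matched the longest linked transcript at 95% identity or more over at least 500 bases. Hnrnpa3 had the most such copies (25, of which 23 were annotated pseudogenes), followed by Hnrnpa1 (9), Hnrnpf (6), Tra2b (4) and Hnrnpk (2). Hnrnpc, Hnrnph2, Hnrnpr, Nono, Ptbp1, Srsf3 and Srsf5 had 1 each. How reads that fit several copies were counted is something not given in the sources used here, so the values of these 12 genes are uncertain in that respect; Purb, Hnrnpd, Elavl2 and Tra2a had no such copy. By gene bounds in GENCODE vM21, 30 of the 46 overlapped another annotated gene, 17 on the same strand and 21 on the opposite one, some on both. Purb, Hnrnpd, Elavl2 and Tra2a were among the 30. Protein-coding genes overlapped 8 of the 46, among them Srsf2 with Mettl23 and Mfsd11 on the opposite strand and Hnrnph3 with Rufy2. The overlaps of Elavl3 with Gm49318 and of Hnrnpm with March2 were on the same strand. The strand setting of the counting was also not given in the sources used here, so reads of such partners cannot be told apart.

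Related RNA-processing genes were taken as a background. Of 63 further hnRNP, SR and splicing regulator genes, 60 were in the authors' deposited table, 35 negative and 25 positive, with a median log2 fold change of -0.01 and 0 with an unadjusted p under 0.05. The smallest p among them was that of Luc7l, for a component of the U1 particle (-0.17 ± 0.09, p = 0.0752 in the authors' deposited table), followed by Clk1, an SR protein kinase gene (-0.16 ± 0.09, p = 0.0830). Of 60 core spliceosome genes 21 were negative and 39 positive in the authors' deposited table, with a median log2 fold change of 0.03. Prpf39, a U1-associated gene, was by the authors' deposited table the 1 of them to reach an unadjusted p of 0.05 (-0.22 ± 0.10, p = 0.0251, DESeq2 adjusted p = 0.9997), and Prpf8, for the protein at the catalytic centre, came next (0.10 ± 0.07, p = 0.172). Of 23 export and exon junction genes 10 were negative and 13 positive, led by the THO complex genes Thoc1 (-0.19, p = 0.0715) and Thoc7 (-0.17, p = 0.0734) in the authors' deposited table. Median GC content was 47.7% for the further regulators, 49.4% for the core spliceosome genes and 51.9% for the export genes, each above the 44.1% of the 46 regulators. After the GC content and length trend was taken off, negative values numbered 31, 17 and 11 in these lists, in the same order. Their median residuals were -0.003, 0.03 and 0.009, beside -0.02 for the 46 regulators. The differences between these lists were not tested.

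**Figure D4:**
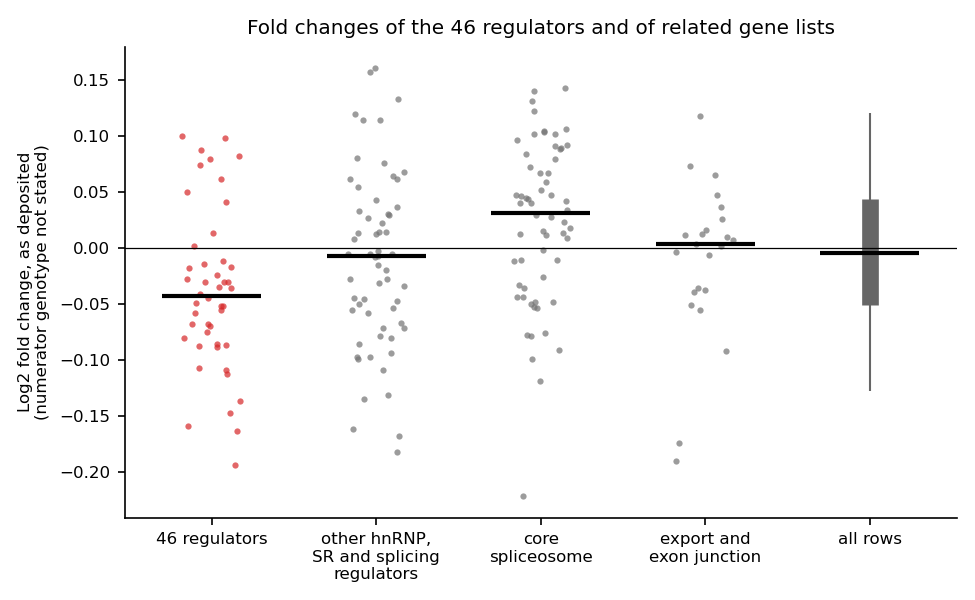
Log2 fold change, as deposited, of single genes (points) in the 46 regulators and in 3 related lists, with the median of each list as a black line; for all rows the thick bar spans the 25th to 75th percentile and the thin line the 5th to 95th. The median is -0.04 for the 46 regulators, -0.01 for the 60 further regulators, 0.03 for the 60 core spliceosome genes and 0.004 for the 23 export genes.

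Cell type markers are given beside these values because bulk brain RNA mixes cell types, and fewer cells of a type and less RNA per cell cannot be told apart. All 11 neuronal marker genes reached 100 normalized counts on average in the authors' deposited table. Of the neuronal markers 7 were positive and 4 negative in the authors' deposited table, the smallest p-values belonging to Gad2 (-0.19, p = 0.0631) and Gad1 (-0.19, p = 0.0694), the genes of GABA synthesis. Astrocyte markers were 1 positive and 6 negative in the authors' deposited table, with Aldh1l1 at 0.09 and Slc1a3 at -0.07, and oligodendrocyte markers 2 positive and 5 negative, with Mog at 0.14. Microglial markers were 3 positive and 4 negative in the authors' deposited table, with Aif1 at -0.13 and Cx3cr1 at 0.08. All 7 endothelial and mural markers were positive in the authors' deposited table, led by Pecam1 (0.17, p = 0.0954) and Myh11 (0.13, p = 0.229), as were the 4 blood genes present, with Alas2 and Hbb-bt at 0.07 and 0.06. In the authors' deposited table no marker with a p reached an unadjusted p of 0.05. The blood genes Hba-a2 and Hbb-bs, with log2 fold changes of 0.07 ± 0.04 and 0.07 ± 0.04 (SE), were given no p there. The part of cell composition in the regulators' values was not tested.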

How the data were processed

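The deposited file is the authors' own comparison of 5 C9-BAC and 3 wild-type brain samples. The submitters' processing notes list Trimmomatic, Bowtie2, DESeq and DESeq2 as tools of the authors and mm10 as build; versions, read counter and filters were not given in the sources used here. A mean normalized count is a signal deposited by the authors. Fold change and standard error are on the log2 scale, the Wald statistic is a score, and the authors gave a p-value and an adjusted p-value, per the file headers. The adjusted p is a Benjamini-Hochberg adjustment over 15944 rows, checked to within 5.33e-12.

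RefSeq accessions in row names gave symbols for 15930 rows (15857 from a GRCm38.p6 table, 73 through GENCODE vM21). GC content and length came from the longest linked vM21 transcript, found for 99.3% of rows. Their trend was fitted as a cubic in GC content and a quadratic in log2 length over 13627 rows whose mean count was 10 or more. Copies were searched with blastn 2.17.0. Python 3.11.15 was used, and the computations were tested on simulated data. Library depths were not analysed here; the mean normalized counts of all rows add up to 9226666. If samples were not separate mice, p-values measure technical spread.

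Genes, lists, tests and the naming rule were chosen with earlier results of these data known. Full values go to the 5 genes of smallest p, the 5 of highest level per kilobase and the 3 of largest p, and 2 genes of smallest p stand for each other list, except that 1 marker is not reported here; Rbfox3, Srsf11 and Pura have theirs for their place in the order. Alternatives changed the rows over which p was adjusted, the null distribution, the centring, the count filter and the GC content trend.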

Additional observations from a re-analysis of the deposited data

How the results depend on the processing

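No paired analysis was possible because the genotypes share no replicate numbers and the table holds no values for single samples; leaving out single mice was not run for the same reason. The count of 0 genes with an adjusted p under 0.05 held when p was adjusted over rows whose mean count was at least 10 or 100, with rows lacking a p entered at 1, and with the empirical nulls, where the smallest adjusted p was 0.884 (0.759 after GC content and length, 0.700 with the transcript of middle length, a setting chosen after seeing the data). The count with an unadjusted p under 0.05, 0 as deposited, was 1 under each empirical null made from the authors' deposited statistic: Purb without the GC content trend (p = 0.0224; 4.95% of all rows passed), Srsf11 after it (p = 0.0435; 6.36%) and Hnrnpd with the transcript of middle length (p = 0.0302; 6.29%). The empirical null recentres the statistic on its median and divides it by an SD from its median absolute deviation. This SD was 0.789 without the trend and 0.682 after the trend of the longest transcript. Recentring and rescaling alone brought only Purb under the unadjusted threshold. Srsf11 and Hnrnpd came under it only where a trend was also taken off. The trend of the longest transcript moved the Wald statistic of Srsf11 from 1.08 to 1.37. For Hnrnpd it stayed at -1.50 after the trend of the transcript of middle length. The 35 negative genes remained 35 with the count filter and after centring on the median of all rows. After the GC content trend 28 (60.9%) were negative, against 50.7% of all rows with a transcript, or 27 with the transcript of middle length. The median log2 fold change was -0.04 with the count filter and with the centring, and -0.02 with either trend. Without counts per sample, depth and counting error could not be given.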
